A study of Homo sapiens with 8 samples.

Results

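ABCC2 and 8 other ATP-binding cassette (ABC) transporters known for multidrug resistance were followed across the 4 groups of arrays of this experiment. They are ABCC1, ABCC3, ABCC4, ABCC5, ABCC6, ABCC10, ABCB1 and ABCG2, taken as the features of the expression table that carry these gene symbols. All 9 genes were found, each measured by 1 feature, among 20219 distinct symbols and 29141 tested features. ABCC2 was chosen by its log2 difference with IL-13 in these arrays in both hairpin lines, and the other 8 as members of the same functional group. Its IL-13 values are therefore given as a description without a test.

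The cells were MIV-Luc, a luciferase-expressing form of MCF10CA1a, which is the metastatic carcinoma line of the MCF10A breast progression series. They carried either a scrambled hairpin (shSCR) or hairpin #2 against the decoy receptor IL13Rα2 (shIL13Rα2), each delivered as a lentiviral pLKO construct and kept as a stable line. Each line was mock-treated (− IL-13) or exposed for 16 h to IL-13 at 20 ng/ml (+ IL-13), in a medium that for all groups contained horse serum, insulin, EGF, cholera toxin and hydrocortisone. Each group had 2 arrays, which the study describes as biological replicates and which are called A and B here in column order. The knockdown rests on 1 hairpin sequence, so an effect of the hairpin and an effect of the transduced line cannot be told apart. The RNA was taken from whole cultures, where fewer expressing cells and less RNA per cell cannot be told apart either.

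ABC transporters are membrane pumps that use ATP to move molecules across membranes. ABCC2, also called MRP2, sits in the apical membrane of hepatocytes and of kidney and gut epithelium, where it exports glutathione and glucuronide conjugates, bilirubin glucuronides among them, and several anticancer drugs. Its relatives differ in membrane side and cargo, and tumor cells that carry more of these pumps can keep drugs such as anthracyclines, platinum compounds or topoisomerase inhibitors at lower levels inside. IL-13 is a cytokine of type 2 immunity that signals mainly through STAT6, and IL13Rα2 is a high-affinity receptor that binds it without the usual signaling.

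The values are log2 expression on the RMA scale, so that a difference of 1 is a 2-fold change, and levels of different genes are not ranked against each other because each rests on its own probes. Array medians lay between 5.02 and 5.06, and Pearson's r across features was 0.992 to 0.993 within groups and 0.988 to 0.993 between groups. IL13RA2, the hairpin target, stood at 8.07 and 8.09 in mock-treated shSCR arrays, 9.36 and 9.33 in IL-13-treated shSCR arrays, 6.52 and 6.34 in mock-treated shIL13Rα2 arrays, and 8.23 and 8.15 in IL-13-treated shIL13Rα2 arrays. It was thus lower with the hairpin at either treatment. In the treated knockdown cells it was near the level of mock-treated shSCR cells, with both arrays slightly above and a difference of 0.11 (95% interval -0.14 to 0.36). Over the 8 arrays the mean log2 level of 9 basal mammary markers ran from 7.42 to 7.58, and that of 9 luminal markers from 6.39 to 6.62. For 10 markers of hepatocytes and enterocytes, the tissues best known for ABCC2, it ran from 3.99 to 4.15, and for 10 blood, endothelial and fibroblast markers from 4.89 to 5.06. These ranges compare arrays within a list and not the lists with each other. Of these markers TP63 rose over both constructs by 0.84 with IL-13 (limma, adjusted p = 0.0463) and by 0.94 with the knockdown (adjusted p = 0.0225). KRT18 fell with the knockdown by 0.60 on the log2 scale in its feature with the smaller p (limma, adjusted p = 0.0454). The other KRT18 feature had group means of 8.48 and 8.47 in shSCR cells, without and with IL-13, and 8.11 and 8.23 in shIL13Rα2 cells. SERPINA1 fell with the knockdown by 0.98 on the log2 scale (limma, adjusted p = 0.0191). In shIL13Rα2 (+ IL-13) against shSCR (− IL-13) cells, TP63 differed by 1.78 (adjusted p = 0.00969) and SERPINA1 by -1.21 (adjusted p = 0.0357). The part of these markers in the transporter values was not tested.

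The bases just before the RefSeq start of ABCC2 are shown because ABCC2 is the member whose level differed most between groups. The run covers the 250 bases up to the start, chr10:99782390-99782639 on the plus strand of GRCh38.p14, 5′ to 3′.
ABCC2: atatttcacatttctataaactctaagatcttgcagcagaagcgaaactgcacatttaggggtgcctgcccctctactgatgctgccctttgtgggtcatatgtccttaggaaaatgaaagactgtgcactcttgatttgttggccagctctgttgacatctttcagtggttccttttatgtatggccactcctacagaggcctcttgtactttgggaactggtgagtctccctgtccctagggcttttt
RefSeq windows of 300 bases, 250 before and 50 after a start, were given for 7 of the 9 members, 14 windows in all, and none for ABCC1 and ABCC3. Each was searched on both strands for TTCNNNNGAA, the spacing preferred by STAT6, for TTCNNNGAA, the spacing of other STAT sites, and for TGACNNNGC, the core of the antioxidant response element bound by NRF2. Of 35116 windows of the same length, 6.44% held TTCNNNNGAA, 7.66% held TTCNNNGAA and 13.35% held TGACNNNGC. The ABCC2 window held none of the 3, which says only that these letters do not occur in this window. Its GC content was 45%, against a median of 58.7% over all windows, and 21.3% of windows were at or below it.

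The other members' matches that lie before the start are printed here for comparison with ABCC2, with the match in capitals between 10 flanking bases on each side.
ABCC5: tcaccggcgcTTCTGGGAAatgtagtcct
ABCG2: agcatccactTTCTCAGAAtcccattcac
ABCG2: cagaatcccaTTCACCAGAAaccacccatt
ABCC4: gtctcctcccGCCGCGTCAcccgtcggtc
ABCC10: aggttataaaTGACGTTGCactaagggag
The ABCC5 match to TTCNNNGAA begins 152 bases before the start, at chr3:184018018-184018046 on the minus strand. ABCG2 has 5 windows, and 1 of them holds TTCNNNGAA 62 bases and TTCNNNNGAA 48 bases before the start, at chr4:88159334-88159362 and chr4:88159319-88159348 on the minus strand, where the matches themselves do not overlap. The same ABCG2 window also holds TGACNNNGC at its start site, a match that is not printed here. The ABCC4 match to TGACNNNGC, on the opposite strand to the gene, begins 149 bases before the start at chr13:95301582-95301610 (minus strand), and the ABCC10 match, in 1 of its 2 windows, 143 bases before it at chr6:43427388-43427416 (plus strand). The windows of ABCC6 and ABCB1 held none of the 3 motifs.

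ABCC2 was high in every IL-13-treated array and low in every mock-treated array. Its log2 expression was 7.12 and 6.95 in shSCR (− IL-13) arrays A and B, and 8.42 and 8.44 in shSCR (+ IL-13) arrays. In the knockdown line it was 6.87 and 6.83 without IL-13, and 8.35 and 8.31 with it. The 4 treated arrays lay more than 1 log2 unit above the 4 mock-treated ones, and the groups did not overlap. Group means were 7.04 ± 0.12 and 8.43 ± 0.01 in shSCR cells, and 6.85 ± 0.03 and 8.33 ± 0.02 in shIL13Rα2 cells (SD, n = 2 each).

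**Figure D1:**
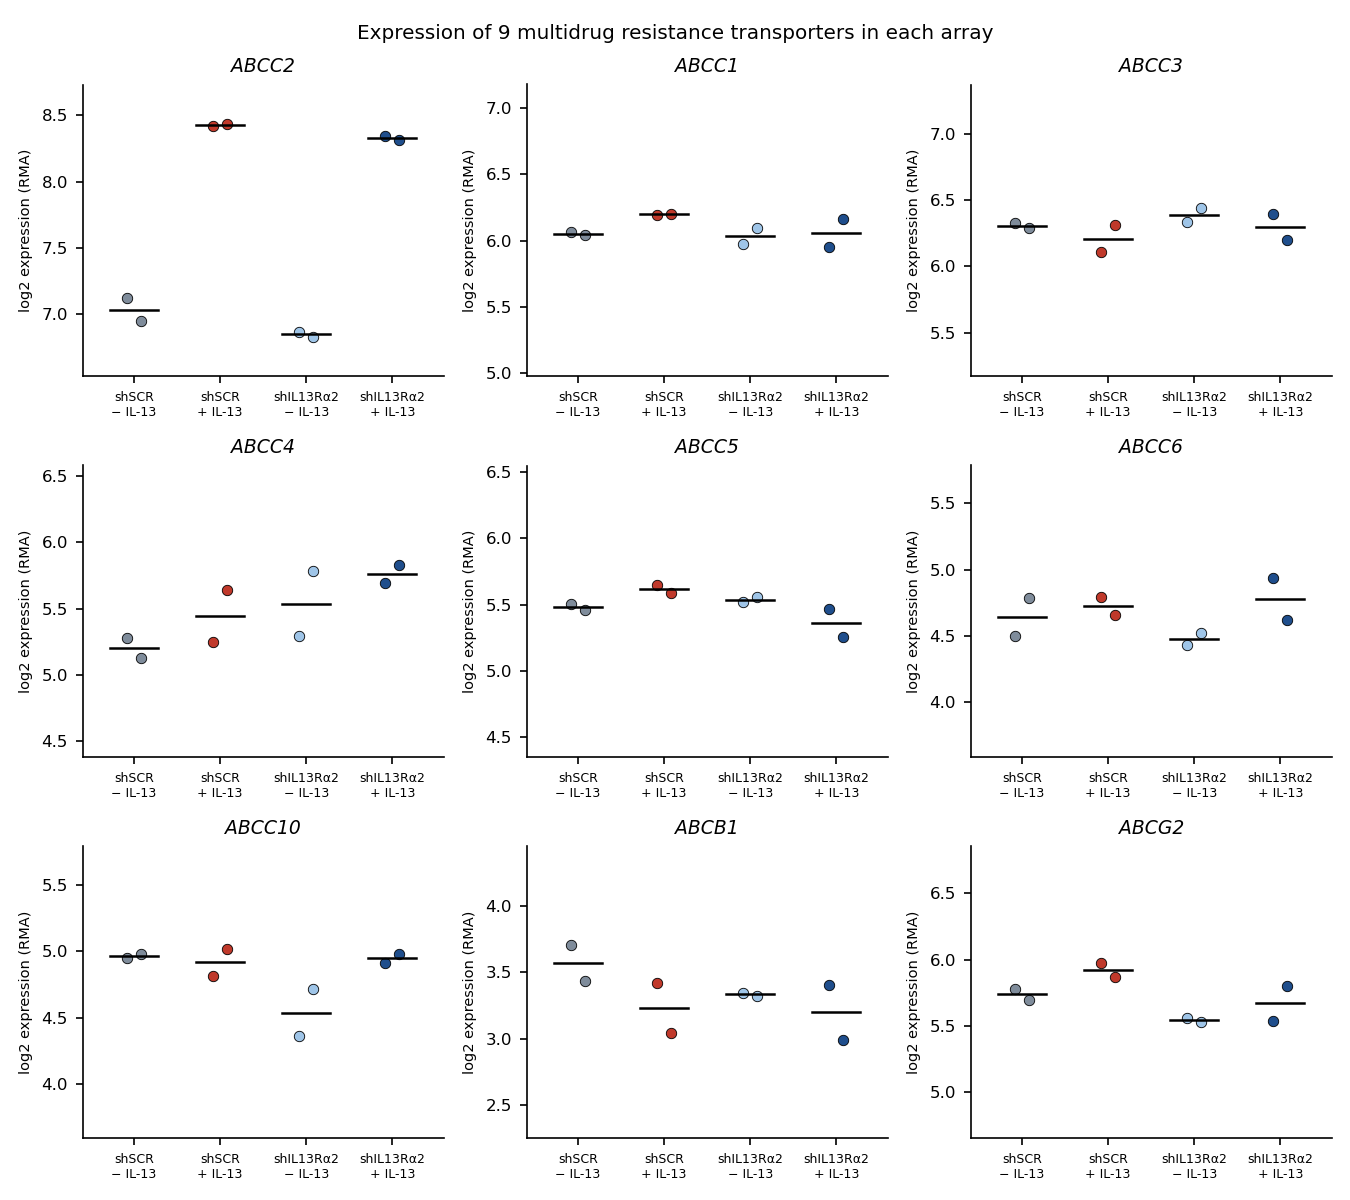
Log2 expression (RMA) of the 9 transporters on each of the 8 arrays, by hairpin and treatment. Circles are arrays and bars are means of the 2 arrays, and every panel spans the same number of log2 units so that distances compare between panels. ABCC2 runs from 6.83 to 8.44 with its treated arrays on top, whereas the other 8 genes stay within ranges of 0.25 to 0.71.

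The difference with IL-13 in ABCC2 was 1.39 (standard error 0.11) in shSCR cells, a fold of 2.62, and 1.48 (standard error 0.11) in shIL13Rα2 cells, a fold of 2.79. Removing any single array kept the first between 1.31 and 1.48 and the second no lower than 1.46. Both passed an adjusted p under 0.05 with a fold above 2, a call that its choice for this response fixes, and 0.0583% and 0.0618% of all tested features were called in these comparisons. The call was lost in either line without any one of the 4 arrays compared, with the adjusted analysis of variance and with limma on those 4 arrays alone. In order of fold change ABCC2 was number 7 of the 13 genes that rose in shSCR cells and number 5 of the 10 that rose in shIL13Rα2 cells. With both constructs averaged the difference was 1.44 (standard error 0.075), number 8 of 42 genes that rose, where 0.233% of features were called.

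A difference between the lines in the IL-13 response of ABCC2 was not detectable with these arrays. The IL-13 difference in shIL13Rα2 cells minus that in shSCR cells was 0.09 (standard error 0.15, 95% interval -0.26 to 0.44), given as a value because both of its terms entered the choice of the gene. No feature of the table was called for this interaction (0% called, 4.47% at an unadjusted p under 0.05, limma).

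The difference between the lines in ABCC2, once averaged over both treatments, does not depend on the IL-13 contrasts in this balanced design, so it was tested. Averaged over both treatments ABCC2 differed by -0.14 (standard error 0.075, 95% interval -0.32 to 0.03) between shIL13Rα2 and shSCR cells and was not called (adjusted p = 0.532 from limma). Without IL-13 the difference was -0.19 and with IL-13 -0.10, values that share arrays with the IL-13 contrasts used for choosing ABCC2. At either treatment both shIL13Rα2 arrays lay below both shSCR arrays, an arrangement that 41.2% of features showed without IL-13 and 36.4% with it, in either direction. The 4 group means fell in the order shSCR (+ IL-13), shIL13Rα2 (+ IL-13), shSCR (− IL-13) and shIL13Rα2 (− IL-13). Neighbors of the same treatment, which differ by line, were not told apart by the test. Against shSCR (− IL-13) cells the shIL13Rα2 (+ IL-13) cells stood 1.29 higher in ABCC2, number 16 of the 28 genes that rose in a comparison with 0.154% of features called. This comparison and that of IL-13 in shSCR cells share the 2 mock-treated shSCR arrays, and its treated arrays are those of the IL-13 contrast in shIL13Rα2 cells. Both contrasts entered the choice of ABCC2, so this value is a description and not a test.

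None of the other 8 transporters was called in response to IL-13 in either line. Of all features, 0.0583% were called in shSCR cells and 0.0618% in shIL13Rα2 cells. Their differences ran from -0.34 to 0.24 in shSCR cells (median 0.11, against 0.0019 over all features) and from -0.18 to 0.41 in shIL13Rα2 cells (median 0.07, against 0.02). The smallest adjusted p from limma was 0.795 in the first and 0.637 in the second comparison. For all 8 genes the 95% interval of the difference lay inside a 2-fold change in both lines, which sets a bound on any response but does not show that there was none. With IL-13, both arrays lay on one side of both mock-treated arrays for 4 of the 8 genes in shSCR cells and 3 of the 8 in shIL13Rα2 cells, near the 36.7% and 37.4% of all features that did so. Over both constructs none of the 8 had its 4 treated arrays apart from its 4 mock-treated ones, which 4.78% of features did.

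**Figure D2:**
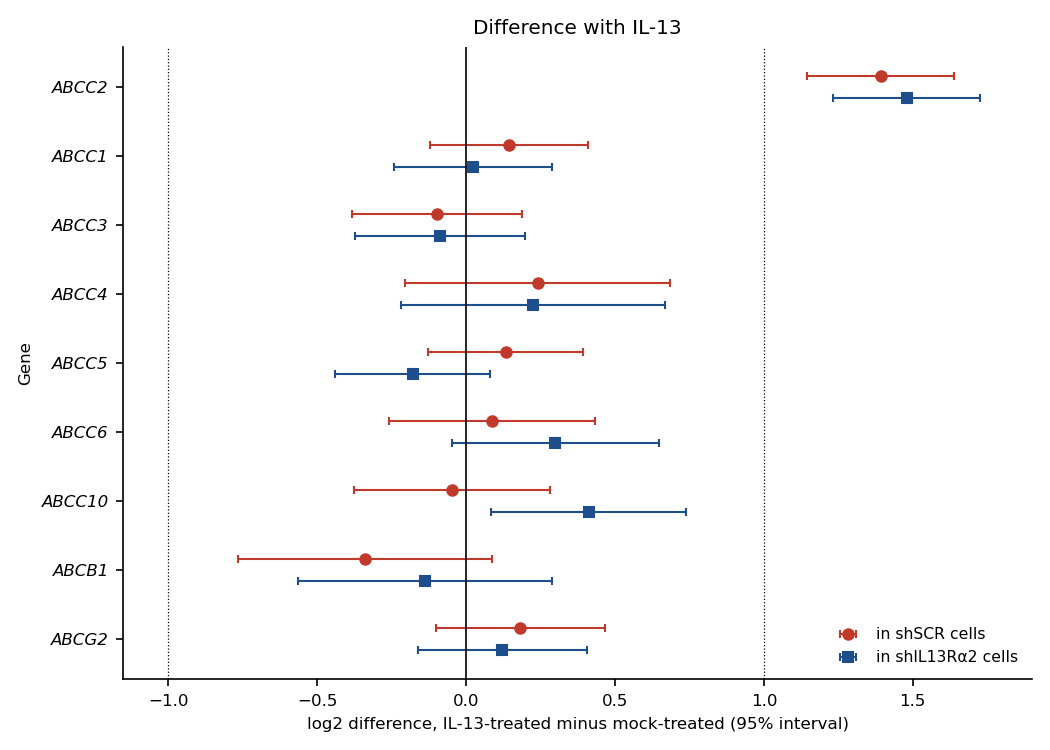
Log2 difference between IL-13-treated and mock-treated cells (horizontal axis) for each transporter, with circles for shSCR cells, squares for shIL13Rα2 cells and bars for the 95% interval from limma. Dotted lines mark 2-fold. ABCC2 stands at 1.39 and 1.48, and the intervals of the other 8 genes lie between -0.76 and 0.74.

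ABCC1, or MRP1, exports glutathione conjugates, leukotriene C4 among them, from the basolateral side of many cell types. It stood at 6.06 and 6.04 in shSCR (− IL-13) arrays, 6.19 and 6.20 with IL-13, 5.97 and 6.10 in mock-treated shIL13Rα2 arrays, and 5.95 and 6.16 in treated ones. The treated shSCR arrays lay just above all others, by 0.15 (standard error 0.11) over their mock-treated controls, and the knockdown arrays overlapped. The adjusted p was 0.857 in shSCR and 0.985 in shIL13Rα2 cells (limma). It had the narrowest range of the 9 genes.

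ABCC3, or MRP3, is the basolateral exporter of glucuronides and bile salts that hepatocytes raise when canalicular export through ABCC2 fails. It read 6.33 and 6.29 in shSCR (− IL-13), 6.11 and 6.31 in shSCR (+ IL-13), 6.33 and 6.44 in shIL13Rα2 (− IL-13), and 6.39 and 6.20 in shIL13Rα2 (+ IL-13) arrays. Treated and mock-treated arrays overlapped in both lines. The IL-13 differences were -0.10 and -0.09 (standard error 0.12 each), with 95% intervals of -0.38 to 0.19 and -0.37 to 0.20.

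ABCC4 (MRP4) exports cyclic nucleotides, prostaglandins and nucleoside analog drugs. Its arrays were 5.28 and 5.13 in shSCR (− IL-13), 5.25 and 5.64 in shSCR (+ IL-13), 5.29 and 5.78 in shIL13Rα2 (− IL-13), and 5.70 and 5.83 in shIL13Rα2 (+ IL-13) cells. The spread within the 2 middle groups, with SDs of 0.28 and 0.35, was as wide as the steps between group means. Its difference over both treatments with the knockdown was 0.32 (95% interval 0.01 to 0.64, unadjusted p = 0.0441 and adjusted p = 0.429 from limma). Between shIL13Rα2 (+ IL-13) and shSCR (− IL-13) cells, whose arrays did not overlap (as for 40.3% of features), it was 0.56 (95% interval 0.11 to 1.00, adjusted p = 0.425 from limma), the one interval of the other 8 genes that reached 2-fold in any comparison.

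ABCC5 (MRP5) is likewise an exporter of cyclic nucleotides and nucleotide analogs. It read 5.50 and 5.46 in shSCR (− IL-13), 5.64 and 5.59 in shSCR (+ IL-13), 5.52 and 5.56 in shIL13Rα2 (− IL-13), and 5.47 and 5.25 in shIL13Rα2 (+ IL-13) arrays. The treated arrays lay above the mock-treated ones in shSCR cells and below them in shIL13Rα2 cells, by 0.13 and -0.18 (standard error 0.11 each). The difference between these responses was -0.31 (95% interval -0.68 to 0.06, adjusted p = 0.989 from limma), and 4.7% of all features had arrays that parted in opposite directions in this way.

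ABCC6 is a liver and kidney transporter needed for ATP release from hepatocytes and is mutated in pseudoxanthoma elasticum. It has closely similar pseudogenes, so its signal may hold some of theirs. It was 4.50 and 4.78 in shSCR (− IL-13), 4.79 and 4.66 in shSCR (+ IL-13), 4.43 and 4.52 in shIL13Rα2 (− IL-13), and 4.94 and 4.62 in shIL13Rα2 (+ IL-13) arrays. The shSCR groups overlapped, and in shIL13Rα2 cells the treated arrays were the higher ones, by 0.30 (standard error 0.15, adjusted p = 0.762 from limma).

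ABCC10 (MRP7) can export taxanes and vinca alkaloids. Its arrays stood at 4.95 and 4.98 in shSCR (− IL-13), 4.81 and 5.02 in shSCR (+ IL-13), 4.36 and 4.71 in shIL13Rα2 (− IL-13), and 4.92 and 4.98 in shIL13Rα2 (+ IL-13) cells. The mock-treated knockdown arrays were the lowest of the 8, and array A lay well below array B. That group differed by -0.42 from mock-treated shSCR cells (95% interval -0.75 to -0.10, unadjusted p = 0.0177 and adjusted p = 0.430 from limma). The IL-13 difference in the knockdown line was 0.41 (95% interval 0.08 to 0.74, unadjusted p = 0.0205 and adjusted p = 0.637 from limma), and both values rest on the same 2 low arrays.

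ABCB1 is the P-glycoprotein first known from multidrug-resistant cells. Its arrays were 3.71 and 3.44 in shSCR (− IL-13), 3.42 and 3.04 in shSCR (+ IL-13), 3.35 and 3.32 in shIL13Rα2 (− IL-13), and 3.40 and 2.99 in shIL13Rα2 (+ IL-13) cells. All 8 lay below the median of the 2904 negative control features, which was 4.12 to 4.38 on these arrays, whereas the other 8 transporters, ABCC2 included, lay above it on all 8 arrays. The controls have a broad spread, with a 95th percentile of 9.41 to 9.74, so this comparison sorts no gene into expressed or not expressed. The IL-13 difference of ABCB1 was -0.34 in shSCR cells (limma, standard error 0.18 and adjusted p = 0.795) and -0.14 in shIL13Rα2 cells.

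ABCG2, the breast cancer resistance protein, is an apical half-transporter that exports topoisomerase inhibitors, urate and porphyrins. It read 5.78 and 5.70 in shSCR (− IL-13), 5.97 and 5.87 in shSCR (+ IL-13), 5.56 and 5.53 in shIL13Rα2 (− IL-13), and 5.54 and 5.80 in shIL13Rα2 (+ IL-13) arrays. The shSCR arrays lay above the shIL13Rα2 arrays of the same treatment. Averaged over treatments the knockdown difference was -0.22 (95% interval -0.42 to -0.02, unadjusted p = 0.0348 and adjusted p = 0.400 from limma). Its IL-13 differences were 0.18 and 0.12 (standard error 0.12 each) in the 2 lines. The ABCG2 window whose matches are printed above, which is not its only window, holds both STAT spacings and the ABCC2 window neither. A relation of these motifs to the IL-13 differences was not tested.

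With the hairpin against IL13Rα2, none of the 9 transporters was called without IL-13 or with it, in comparisons where limma called 0.0652% and 0.0515% of features. For ABCC2 these comparisons share arrays with the contrasts by which it was chosen. The knockdown differences of the 8 genes other than ABCC2 ran from -0.42 to 0.33 without IL-13 and from -0.26 to 0.32 with it. The range was -0.22 to 0.32 for the average of both, where 0.446% of features were called. At an unadjusted p under 0.05 the averaged knockdown difference listed ABCC4 and ABCG2, in opposite directions, against 11.3% of all features. Without IL-13 the arrays of the 2 lines did not overlap for 7 of the 9 genes, 3 higher and 4 lower in the knockdown line, against 41.2% of all features. With IL-13 this was so for 5 of the 9 genes, against 36.4%. No gene of the 9 had all 4 knockdown arrays apart from all 4 shSCR arrays, which 7.13% of features did.

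**Figure D3:**
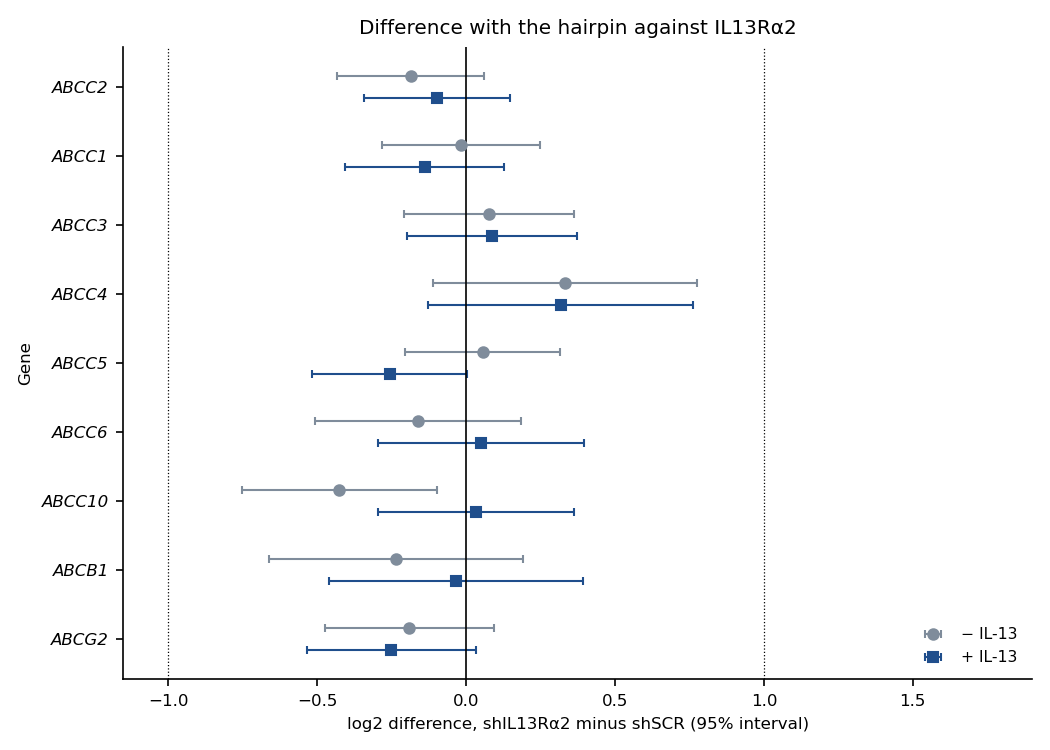
Log2 difference between shIL13Rα2 and shSCR cells (horizontal axis) for each transporter, with circles for mock-treated cells, squares for IL-13-treated cells and bars for the 95% interval from limma. Dotted lines mark 2-fold. Every interval lies inside the 2-fold lines, and that of ABCC10 without IL-13 (-0.75 to -0.10) is the one that leaves out 0.

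Genes that work beside these transporters were taken as 5 lists from general knowledge, 117 genes of which 116 were found on the array. No gene of the 5 lists was called in any of the 8 comparisons, where the share of all features called ran from 0% to 0.446%. For the mean effect of IL-13 the median difference was 0.02 over the features of 39 other ABC transporters, -0.03 for 20 regulators of efflux transporter genes, and -0.08 for 10 proteins that anchor or deliver ABCC2 to the membrane. It was -0.08 for 24 enzymes of glutathione and conjugate synthesis and -0.003 for 23 uptake carriers of organic anions and drugs, against 0.01 over all features.

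The conjugating enzymes supply what ABCC2 exports. At an unadjusted p under 0.05, 4 of the 24 were lower with IL-13 and none higher, where 8.73% of all features reached that p in either direction. They were GSTA4 at -0.68 (standard error 0.13, adjusted p = 0.173 from limma), SULT1B1 at -0.58, GSTA1 at -0.49 and GSTA2 at -0.45. By line, SULT1B1 was at -0.07 in shSCR cells and -1.09 in shIL13Rα2 cells, and GSTA2 at -0.21 and -0.69. GSTA4 was at -0.71 and -0.65, and GSTA1 at -0.65 and -0.33, and none of these passed the test in either line. GSTA4, GSTA1 and GSTA2 are alpha-class glutathione transferases, which are paralogs and can share probe signal, and SULT1B1 is a sulfotransferase. Of the uptake carriers 4 were higher at that p and none lower, with SLC22A5, the carnitine carrier OCTN2, at 0.36 (standard error 0.11, adjusted p = 0.386 from limma) and SLCO1B3, a hepatic organic anion carrier, at 0.40. The other 2 were SLC22A4 at 0.33 and SLCO4A1 at 0.27, while the other feature of SLCO4A1 stood at -0.06.

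In the remaining lists, at an unadjusted p under 0.05 from limma, 2 of the 39 other ABC transporters were higher with IL-13 and 1 lower. Of the 20 regulators 1 was higher and 1 lower, and of the 10 membrane anchors 0 were higher and 1 lower. Among the other ABC transporters the smallest p belonged to ABCB11, the bile salt export pump of hepatocytes, at 0.31 (standard error 0.08, adjusted p = 0.352 from limma). Of the membrane anchors, radixin (RDX), the ERM protein that holds ABCC2 at the canalicular membrane, was at -0.29 (standard error 0.08, adjusted p = 0.328 from limma). Of the regulators, the vitamin D receptor VDR was at 0.33 (adjusted p = 0.484 from limma). The drug sensor NR1I2 (PXR), which induces ABCC2 in liver, was at 0.01, and NFE2L2 (NRF2) at 0.05. These genes outside the 9 transporters are named for having the smallest p of their list or for a known role with ABCC2, a choice made with their values known.

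The genes whose profile over the 8 arrays was most like that of ABCC2 were sought among 139 genes whose group means spanned more than 1 log2 unit. Pearson's r with ABCC2 was highest for CA2 (0.986), PDCD1LG2 (0.980), FAP (0.980), SEMA3A (0.980) and LRAT (0.974), and 13 genes had r above 0.9. These are a carbonic anhydrase, the PD-1 ligand PD-L2, a serine protease of activated fibroblasts, a secreted semaphorin and an enzyme of retinol storage. CA2 read 10.32 and 10.43 in shSCR (− IL-13) arrays, 11.80 and 11.88 in shSCR (+ IL-13), 10.30 and 10.48 in shIL13Rα2 (− IL-13), and 11.86 and 11.84 in shIL13Rα2 (+ IL-13) arrays. Like ABCC2 it was high in the treated arrays of both lines, with IL-13 differences of 1.46 and 1.46.

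At the opposite end stood TMEM45A (-0.984), STC1 (-0.967), AGR2 (-0.964), CEACAM6 (-0.959) and SCEL (-0.942), and 8 genes had r below -0.9. STC1 encodes the secreted hormone stanniocalcin, AGR2 a disulfide isomerase of secretory epithelia, CEACAM6 a cell adhesion molecule and SCEL the cornified envelope protein sciellin. TMEM45A read 7.91 and 7.80, 6.78 and 6.53, 7.94 and 8.01, and 6.90 and 6.70 in the same order of groups, high wherever ABCC2 was low. These correlations are a description over 8 arrays that share 4 groups, and most of each value is set by the step between mock-treated and treated arrays. Among the 9 transporters themselves r with ABCC2 lay between -0.50 (ABCC3) and 0.60 (ABCC6).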

How the data were processed

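RNA from MIV-Luc cells (4 groups, 2 arrays each) was hybridized for the authors to Affymetrix GeneChip arrays. The table that the authors deposited holds gene-level log2 values made by RMA (background correction, joint quantile normalization of the arrays, probe summary) in Affymetrix Expression Console (version 1 in the submitters' processing notes). No further normalization was applied. For arrays, their number limits the precision. The table has 33297 features, of which 4156 controls and spike-ins were dropped, and 29141 entered the tests, 7064 of them without a symbol. No feature of the 9 transporters was marked as cross-hybridizing. The genome build of the table is not given in the sources used here, and promoter sequences come from RefSeq (GRCh38.p14).

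Group means of all 8 arrays were fitted with limma 3.58.1 in R 4.3.3 (4 residual and 3.86 prior degrees of freedom). P-values were adjusted over all features (Benjamini-Hochberg). Pairwise calls needed an adjusted p under 0.05 with a fold above 2, and calls of the averaged effects and the interaction needed the adjusted p alone. The limma call by adjusted p alone, without the fold threshold, was tried on simulated data for IL-13 in shSCR cells. The study names a one-way analysis of variance, which was run as an alternative over the 4 arrays compared. Other alternatives were limma on those 4 arrays, no adjustment, other fold thresholds, leaving out the dimmest 30% of features, 2 further normalizations, a trended robust prior and leaving out each array in turn.

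The genes named are the 9 transporters, IL13RA2, list genes with an adjusted p under 0.05, and the 5 genes most and least like ABCC2 (Pearson's r over the arrays, group means spanning more than 1). Exceptions are marked where they stand, and some list genes are not reported here. Where a list gene had several features, that with the smallest p was counted, and medians are over features. The transporters and the lists were chosen with earlier results of these data known. Columns were assigned to groups by their headings, and the replicates of a group cannot be paired between groups.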

Additional observations from a re-analysis of the deposited data

Results flagged for a closer look

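The IL-13 difference of ABCC5 in shIL13Rα2 cells minus that in shSCR cells was -0.31. It stands here because both IL-13-treated arrays lay above both mock-treated arrays in shSCR cells and below them in shIL13Rα2 cells. The interaction did not pass the test (unadjusted p = 0.0861 and adjusted p = 0.989 from limma), and 4.7% of all tested features showed arrays that parted in opposite directions.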

How the results depend on the processing

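ABCC2 was the 1 transporter called for IL-13 in shSCR cells, for IL-13 in shIL13Rα2 cells and for shIL13Rα2 (+ IL-13) against shSCR (− IL-13) cells. Its choice by the IL-13 difference fixes the call in either line. The last comparison takes all its arrays from those contrasts, so its call is no independent result either. In each of these 3 comparisons the count was 0 with the adjusted analysis of variance and 0 with limma on the 4 arrays compared. With single arrays left out it ranged from 0 to 1, and it was 0 without any one of the 4 arrays compared, where limma's adjusted p reached 0.124, 0.0877 and 0.0739. The left-out group's lone array was assumed to vary like the other groups. Without adjustment the averaged knockdown effect listed 2 transporters, ABCC4 and ABCG2. Genes of the related lists numbered 0, but 2 with the unadjusted analysis of variance (GSTA4 and SULT1B1), 22 with limma without adjustment, 2 without the dimmest features (GCLC and GSTA4), and 5 with the trended robust prior (AHR, GCLC, GSTA4, RDX and SULT1B1). Of 1084 uncalled transporter values compared, 43 changed sign, 40 of them with 1 array left out. No paired analysis was possible because the column headings carry no replicate numbers. With 2 arrays per group the 95% intervals of the transporters' pairwise differences span 0.49 to 0.89 log2 units, which limits the responses that could be detected.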

Other observations

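The 3 protein-coding genes on either side of ABCC2 in RefSeq are ENTPD7, COX15 and CUTC on one side and DNMBP, CPN1 and ERLIN1 on the other. None of the 6 was called for the averaged IL-13 effect, where 0.233% of all features were called. CUTC, a copper-binding protein and the direct neighbor on one side, and ERLIN1, a lipid raft protein of the endoplasmic reticulum, were singled out after their values were seen. The log2 expression of CUTC was 9.79 and 9.67 in shSCR (− IL-13), 10.10 and 9.97 in shSCR (+ IL-13), 9.33 and 9.39 in shIL13Rα2 (− IL-13), and 9.91 and 10.11 in shIL13Rα2 (+ IL-13) arrays. ERLIN1 read 10.11 and 10.29, 10.38 and 10.45, 10.33 and 10.23, and 10.49 and 10.44 in the same order. For both genes all 4 treated arrays lay above all 4 mock-treated ones, and 4.78% of all features parted without overlap in one direction or the other. The averaged difference of CUTC was 0.48 (standard error 0.083, unadjusted p = 0.000484 and adjusted p = 0.116 from limma), and that of ERLIN1 0.20 (standard error 0.079, unadjusted p = 0.0374 and adjusted p = 0.539 from limma). DNMBP, the direct neighbor on the other side, differed with IL-13 by 0.31 in shSCR cells and 0.01 in shIL13Rα2 cells (standard error 0.12 each).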
